A study of Dicentrarchus labrax with 35 samples.

Results

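The 200 probes described here are those whose mean level was higher in the gonads of older European sea bass (Dicentrarchus labrax), with part of the FS fish near the mean of the other older groups. They were chosen by their values, and the rule did not ask that SF, FF and SS be alike. In the authors' processed log2 matrix, the mean of the 15 arrays of SF, FF and SS fish at time 2 (T2) had to exceed the mean of the 15 arrays of time 1 (T1) by at least 1 log2 unit, and the mean of FS1, FS2 and FS4 had to lie within 0.5 of that T2 mean. Of 24200 sea bass probes, 1910 met the first condition and 550 both. Keeping 1 probe for each target sequence left 311 targets, and the 200 with the largest difference were taken, out of 11705 targets on the array.

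Each of 35 gonads was hybridised to an array of its own with a single dye. The T2 groups were SF, FF, FS and SS, with 5 fish each, sampled at 332 days post fertilization. The T1 groups were F (7 fish) and S (8 fish), sampled at 133 days post fertilization, from the upper and the lower extreme of the size distribution of one population. SF fish came from S and were overfed to speed up growth, FF fish came from F and were overfed to keep growing fast, FS fish came from F and had their food reduced, and SS fish came from S and had their food reduced as well.

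By the study's methods, the T1 fish were sexually undifferentiated, so their future sex was unknown, and the T2 fish were all males, with testes that held no spermatozoa. Each T2 group lived in 1 tank, so that feeding regime and tank cannot be told apart. The age given in the extraction protocol of the labels (170 days post hatch) differs from both sampling ages, and the study's text counts age at T2 from hatching with a slightly different figure. The sampling ages of the labels were used. Arrays are numbered by the sample titles.

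In the sea bass the gonad stays undifferentiated for a long time after hatching. It then forms either an ovary or a testis, and in the testis Sertoli cells come to enclose the male germ cells while Leydig cells in the tissue between take up steroid production. A difference between T2 and T1 therefore sets a testis against an organ that had not yet become one, and in whole gonads a larger share of a cell type and more RNA per cell cannot be told apart. No gene name stands beside a probe in the files, and none of the 11705 targets matched the RefSeq table of 30274 sea bass genes used here. Markers of testis, ovary or other tissues could not be looked up for this reason, and probes are given by their identifier, with no role.

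The level of the members at T2 lay well above that at T1 on every array. The median over the 200 members was a log2 level of 11.10, 10.63, 10.77, 10.78 and 10.89 on the SF arrays 1 to 5. It was 11.02, 10.67, 10.58, 10.53 and 10.75 on the FF arrays, and 10.57, 10.62, 10.65, 10.65 and 10.48 on the FS arrays. On the SS arrays it was 11.31, 10.83, 10.49, 10.57 and 10.50, so that SS held both the highest of the 20 testes (SS1) and some of the lowest. At T1 the 7 F arrays ranged from 8.86 to 9.23 (median 9.07) and the 8 S arrays from 8.82 to 9.18 (median 9.07). The lowest T2 array, FS5, was more than 1 log2 unit above the highest T1 array, F1, whereas the median of all 24200 probes stayed between 8.43 and 8.49 on every array, as the quantile normalization makes it. Group means of these array medians were 10.84 ± 0.17 for SF, 10.71 ± 0.19 for FF, 10.59 ± 0.07 for FS and 10.74 ± 0.34 for SS (SD, n = 5 each), against 9.06 ± 0.13 for F (SD, n = 7) and 9.02 ± 0.14 for S (SD, n = 8). The separation of T2 from T1 follows from the choice of the members and was not tested. The order of the groups within T2 was not chosen, and its neighbours lay closer together than the spread within SS.

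**Figure D1:**
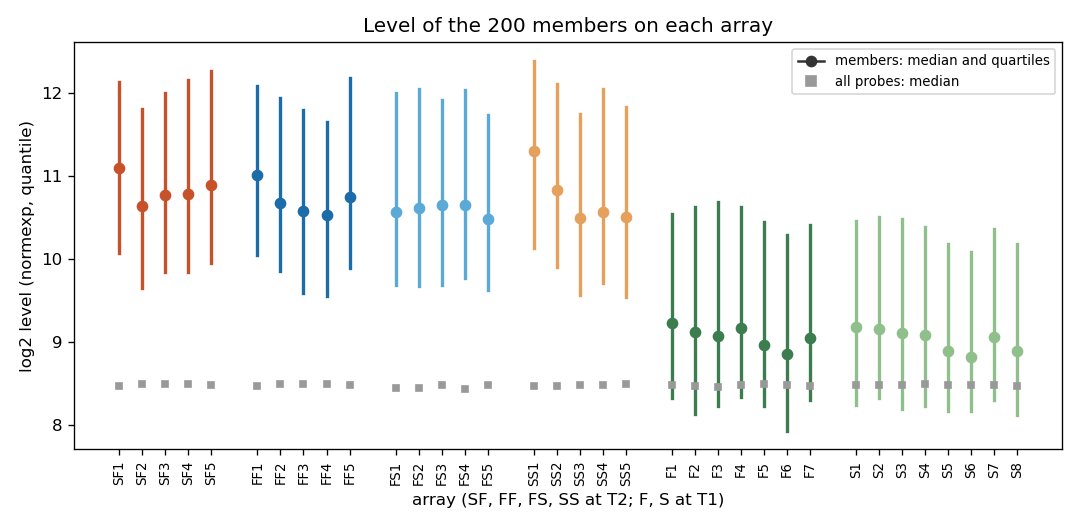
Log2 level of the 200 members on each of the 35 arrays (normexp correction, quantile normalization), with T2 groups at the left and T1 groups at the right; circles are the median over the members, bars run from the lower to the upper quartile, and grey squares are the median of all 24200 probes. The T2 medians lie between 10.48 and 11.31 and the T1 medians between 8.82 and 9.23.

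The difference that chose the members ran from 3.23 for the first to 1.20 for the last, with a median of 1.496, which corresponds to a 2.82-fold higher level at T2. For 36 members it was 2 or more and for 63 it lay between 1.5 and 2. The limit of 200 did not fall at a break in the values. The last 2 members had differences of 1.206 and 1.204, and the first 2 targets left out had 1.200 and 1.199, with 23 members and 26 targets left out within 0.05 of the limit. The mean of FS1, FS2 and FS4 minus that of SF, FF and SS ran from -0.499 to 0.487 over the members (median -0.07). It was below 0 for 112 members, and for 50 it was at least 0.4 in size, near the limit of the rule.

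CUST_1898_PI416070213, the member with the largest difference, is a probe to an assembled contig. Its log2 level was 11.41, 11.21, 10.45, 12.05 and 12.51 in SF, 11.79, 11.48, 10.52, 11.87 and 12.18 in FF, 10.85, 11.55, 11.46, 11.17 and 10.66 in FS, and 11.88, 11.73, 11.23, 12.05 and 10.59 in SS. At T1 it was between 7.80 and 8.99 in F (median 8.28) and between 7.78 and 9.24 in S (median 8.16). No T2 array came within 1 log2 unit of any T1 array, and the T2 groups overlapped widely. The probe was well above background, as the scanner software calls it, on all 20 T2 arrays and on 12 of the 15 T1 arrays. The target has 2 other probes, and their differences between T2 and T1 were 2.85 and 2.39, against 3.24 for the member itself.

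CUST_4825_PI415922062 had the largest difference among the 108 members that were well above background on all 35 arrays. It reached a log2 level of 13.09 to 14.94 in SF (mean 14.24 ± 0.70), 13.84 to 14.89 in FF (14.32 ± 0.41), 13.84 to 14.71 in FS (14.21 ± 0.37) and 14.05 to 15.51 in SS (15.09 ± 0.59, SD, n = 5 each). In F it lay between 11.55 and 12.72 (11.96 ± 0.42, SD, n = 7) and in S between 10.90 and 12.33 (11.63 ± 0.53, SD, n = 8). T2 and T1 again did not overlap. Of the SS fish, 4 had levels from 15.18 to 15.51, above every other array, and SS1 was at 14.05. The SS arrays also stood apart in the control RNA added to every sample, as given below. Its target has no other probe, and the probe has a single spot on each array. The difference between SF, FF and SS and T1 was 2.76, and 1.80 when Feature Extraction's processed signal was scaled to the 75th percentile of each array in place of quantile normalization.

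Taken in each line of fish separately, against the T1 group it came from, the members were higher at T2 in all lines. The median log2 difference of the members was 1.63 for SF minus S, 1.46 for FF minus F, 1.41 for FS minus F and 1.58 for SS minus S. These medians differ by less than the SD of array medians within SS, and pairs that share F or S also share its arrays. For the 15 SF, FF and SS arrays against T1 all 200 members were at 1 or more (8.02% of all probes). Line by line, at least 1 log2 unit was reached by 199 members in SF (9.37% of all probes), 186 in FF (8.24% of all probes), 182 in FS (11.6% of all probes) and 189 in SS (8.51% of all probes). In all lines together 162 members reached it (3.51% of all probes), and no member was lower at T2 than at T1 in any line. The rule fixed most of this, since it used the pooled difference.

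The arrays FS3 and FS5 were not used by the rule. The T1 arrays set against them here were used by it, so a difference is built in in part. The members' median difference between FS3 and FS5 and T1 was 1.40, with 183 of 200 at 1 or more (7.55% of all probes), and all 200 differences were above 0, the lowest being 0.12. For FS1, FS2 and FS4, which the rule did use, the median was 1.48, with 175 at 1 or more (15.2% of all probes). Fewer members than on the arrays FS3 and FS5 thus reached 1 in FS1, FS2 and FS4, and more of all probes did. Set against the range of the 15 SF, FF and SS arrays, FS1 had 169 members within it, FS2 had 176 and FS4 had 175, while FS3 had 189 and FS5 had 193. Over all probes the share within it was 54.1% for FS1, 52.1% for FS2 and 48.5% for FS4, while it was 92.2% for FS3 and 90.2% for FS5. That the members are near the other T2 groups in FS1, FS2 and FS4 was a condition of the rule. In FS3 and FS5 their shares, 189 and 193 of 200, were near those of all probes.

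**Figure D2:**
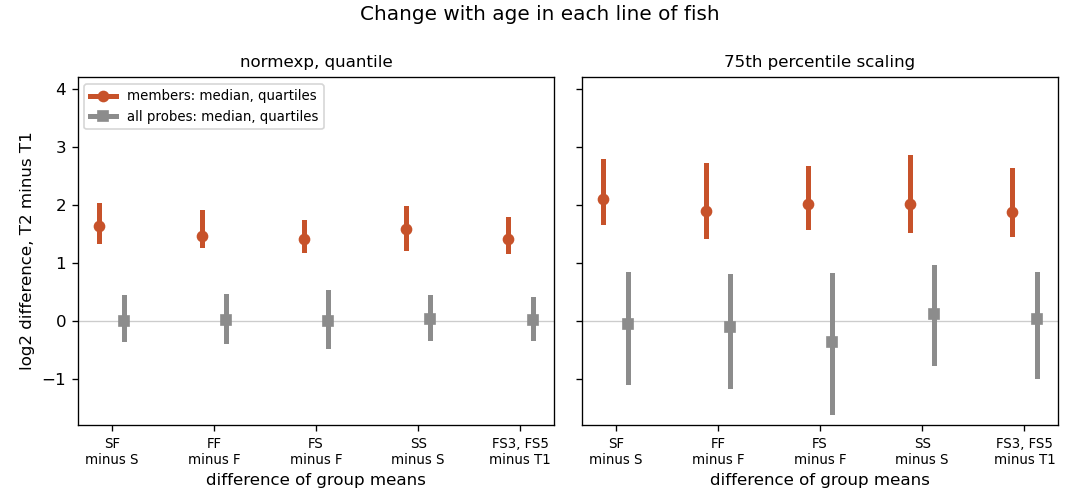
Log2 difference between T2 and T1 in each line of fish and for the 2 FS arrays that did not enter the choice of the members, after quantile normalization (left panel) and after scaling to the 75th percentile of each array (right panel); circles and bars are the median and quartiles of the 200 members, squares and bars those of all probes. The medians of the members lie between 1.40 and 1.63 in the left panel and between 1.87 and 2.10 in the right panel.

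The scaling changed the size of these differences. With the processed signal scaled to the 75th percentile of each array, the members' median was 2.10 for SF minus S, 1.89 for FF minus F, 2.00 for FS minus F and 2.01 for SS minus S, while that of all probes was -0.07, -0.11, -0.37 and 0.12 in the same lines. All 4 lines thus kept a higher level at T2 relative to the probes as a whole. Over the 15 SF, FF and SS arrays and the 15 T1 arrays the members' median was 1.97, with 192 of 200 at 1 or more, against 19.3% of all probes on that scale. The rule itself depended more on the scaling: applied to these values it picked 52 of the same 200 probes and 81 of the same 200 targets, against 185 probes and 193 targets when applied to the quantile normalized scanner values.

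Slide and scan day did not separate T2 from T1 fully. There were 9 slides and 2 scan days for the 35 arrays. The second day held all F arrays, S1 to S4 and FF2. The slide that held FF2 with S2, S3 and S4 is the only one with both ages. On it the members' median difference was 1.46, with 183 of 200 at 1 or more (8.21% of all probes), and every member was higher in FF2, by 0.01 to 3.31. All of these arrays had entered the choice of the members, so a difference of this kind was built in, and the value is a description of that slide only.

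Taken fish by fish, 160 of the 200 members had all 20 T2 arrays above all 15 T1 arrays (4.39% of all probes). Except for FS3 and FS5, all of these arrays had entered the rule, so a high share was built in. The widest gap between the lowest T2 and the highest T1 array was 2.19 log2 units, and among the 40 members with overlap the deepest was 1.58. Of the member values on single arrays, 28 in SF, 40 in FF, 33 in FS and 39 in SS lay below the highest T1 array. No T2 group therefore carried all of the overlap.

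The median member was brighter than most probes already at T1. The median over members of the mean T2 level was 10.66, at the 84.5th percentile of all probes, and that of the mean T1 level was 8.97, at the 60.5th percentile. Of the 200, 72 were in the top 10% of probes at T2 and 24 at T1, and single members ranged from 8.68 to 16.59 at T2 and from 7.16 to 15.05 at T1. The list therefore holds both dim probes and some of the brightest of the array.

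Dim spots limit the T1 values of many members. On a T2 array, 99.5 to 100% of the members were well above background, and on a T1 array 56.0 to 91.5%. All 35 arrays showed 108 members (54.0%) above background, compared with 38.5% of all probes, and a further 86 were above it on some T1 arrays only. The remaining 6 were not well above background on any T1 array, so that their T1 level is uncertain. They were 2.31-fold to 4.16-fold higher at T2 over a floored T1 level. For these folds the mean of the 20 T2 arrays was set against a floor on each T1 array, which was the dimmest level called well above background there or, if higher, that of the member. The floor is the lowest such level of any probe, so the folds are no strict lower limits. For the members at both ends of the range it left the measured T1 mean as it was (7.475 and 7.362). The median difference was 1.49 in the 108 members and 1.52 in the other 92, so dimness did not go with a larger difference after quantile normalization. After scaling to the 75th percentile it did, with 1.63 in the 108 and 2.86 in the 92. When the members were ordered by their T1 level, the dimmest 67 (up to 8.53) had a median difference of 3.09 on that scale, the next 67 (8.54 to 9.80) of 1.91 and the brightest 66 (from 9.81) of 1.40, against 1.52, 1.47 and 1.54 after quantile normalization. The part of the background correction in these values was not tested.

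Other probes of the same targets gave a second reading from the same RNA. For 158 members the array held 315 other probes of the same target, and 42 members had none. The median difference of the other probes was 1.39, against 1.52 for the members of the same targets, which had been picked as the largest of their target. Of the 315, 314 were above 0 and 274 (87.0%) were at 1 or more, against 6.98% of the probes on the array without them, members included. The targets had been chosen by this same difference on the same arrays, so a high share is built in in part. In 125 of the 158 targets every other probe was at 1 or more, and in 4 at least 1 probe was under 0.5. The highest of the other probes reached 3.33 and the lowest was at -0.03, so that a few targets were read differently by their probes. Of the members, 166 are probes with 2 spots (0.882% of 18825 such probes) and 34 are probes with 1 spot (0.639% of 5321).

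The target names fall into contigs and into single clones with numbered prefixes, whose meaning the files do not give. Contigs supplied 87 members, 2.63% of 3305 such targets, against 1.71% of all targets. Among single clones, prefixes cDN22 to cDN24 supplied 36 members, or 3.63% of 993 targets, and prefixes cDN25 to cDN35 supplied 77, or 1.04% of 7407 targets. The share was highest for cDN23, with 16 of 367 targets (4.36%). Probes of cDN22 to cDN24 also included more with a difference of at least 1 whether or not they were members, 11.0%, against 5.74% for cDN25 to cDN35. With cDN22 to cDN24 pooled, falling probes leaned the same way, but the single prefixes differed. Of 200 falling targets, picked by the same rule with the sign turned, contigs supplied 2.09% of their targets. Prefixes cDN22 to cDN24 supplied 2.62% and cDN25 to cDN35 supplied 1.42%. Within cDN22 to cDN24 the falling share was 5.83% for cDN22, 0.817% for cDN23 and 1.33% for cDN24. The rising share was 3.07%, 4.36% and 3.33% in the same order. The pooled falling share thus came mostly from cDN22, and cDN23 and cDN24 leaned to rising targets only. The number of probes per target differed as well. A single probe was found for 1.31% of the cDN22 to cDN24 targets, against 57.9% of the cDN25 to cDN35 targets, and a target with more probes had more chances to be chosen. The part of this in the shares was not tested.

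Whether the members also differed with growth was asked in comparisons that the rule had pooled. A probe high in only 1 of SF, FF and SS could meet the rule through that group. Comparisons among these groups are therefore not independent of the choice of the members. Between F and S at T1, limma called 0 of the 200 members (0% of all probes). A call needed a change of 1.5-fold or more in either direction together with a p under 0.01 after Benjamini-Hochberg adjustment over all probes. In limma 43 members had an unadjusted p under 0.05, which is 21.5% of the members, against 20.4% of all probes. Of the 43, 31 were higher in F, against 2736 of 4938 over all probes. The median log2 difference of the members, F minus S, was 0.02, against 0.03 over all probes, and 6 members were past 1.5-fold (8.2% of all probes past it). The smallest adjusted p of a member was 0.0562 in limma. All F arrays were scanned on the second day, and with scan day as a block or with the S arrays of that day alone limma again called 0 members.

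SF vs. SS and SF vs. FF gave the same count. Between SF and SS, limma called 0 members (0% of all probes), with 34 at an unadjusted p under 0.05 (17.8% of all probes), 24 of them higher in SF (2334 of 4302 over all probes), and a median log2 difference of 0.10, against 0.01 over all probes. In this comparison 14 members were past 1.5-fold (5.17% of all probes). Between SF and FF, limma called 0 members (0% of all probes), with 13 at an unadjusted p under 0.05 (5.8% of all probes), 9 of them higher in SF (741 of 1404 over all probes), and the median log2 difference was 0.10, against 0.00 over all probes. Only 5 members were past 1.5-fold (1.89% of all probes). SF had the highest group mean of the T2 groups for 76 of the 200 members (38%, against 18.2% of all probes). FF had it for 50 (25%, against 21.3%), FS for 24 (12%, against 33.3%) and SS for 50 (25%, against 27.2%). The rule kept FS near the other groups, which bears on its share. It also took members by a high mean over SF, FF and SS, so the shares of these groups may be built in in part. No slide held SF with FF arrays, so slide and group cannot be told apart there, and only 1 slide held SF with SS arrays.

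Between FF and SS, limma called 0 of the 200 members (0.0992% of all probes). At an unadjusted p under 0.05 there were 41 members (20.5%, against 18.8% of all probes), 30 of them higher in FF (2675 of 4550 over all probes), while the median log2 difference was -0.01, against 0.01 over all probes, and 34 members were past 1.5-fold (6.98% of all probes). The members spread more widely between FF and SS (SD of the differences 0.45) than between SF and FF (0.24). The same held over all probes (0.34 and 0.21). Members that met the rule through high SS or FF values can widen the differences between FF and SS. The part of this was not tested. Of the 200 members, 98 were higher in FF than in SS. The smallest adjusted p of a member, 0.0129 in limma, was that of CUST_1970_PI416070213 and of CUST_5762_PI416070213, both lower in FF, so that no member passed.

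The spread of the T2 group means put numbers on how alike the groups were. For the median member, the highest and the lowest of the 4 T2 means lay 0.40 log2 units apart, against 0.43 for the median of all probes, and for 10 members they lay more than 1 apart, against 12.3% of all probes. The rule itself kept FS near the other groups, which bounds this spread in part. Over single members it ran from 0.04 to 2.36.

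Whether the change with age differed between fish kept fast and fish kept slow was tested as (FF minus F) minus (SS minus S) in limma over F, S, FF and SS. It was called for 1 of the 200 members (0.0702% of all probes), and 42 had an unadjusted p under 0.05 (21.0%, against 15.7% of all probes), 21 of them above 0 (1973 of 3796 over all probes). On the 75th percentile scale the order of these shares turned, with 9.5% of the members against 12.1% of all probes. The 1 call, CUST_1970_PI416070213, came into the list through the SS arrays, so it is no independent result about the members. The median of this difference of changes was -0.01, against -0.02 over all probes, and 45 members were past 1.5-fold (15.6% of all probes). In 199 members the difference did not pass, which does not show that the lines changed equally. Scan day was not taken as a block in this test, although all F arrays were scanned on the second day and all SS arrays on the first.

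**Figure D3:**
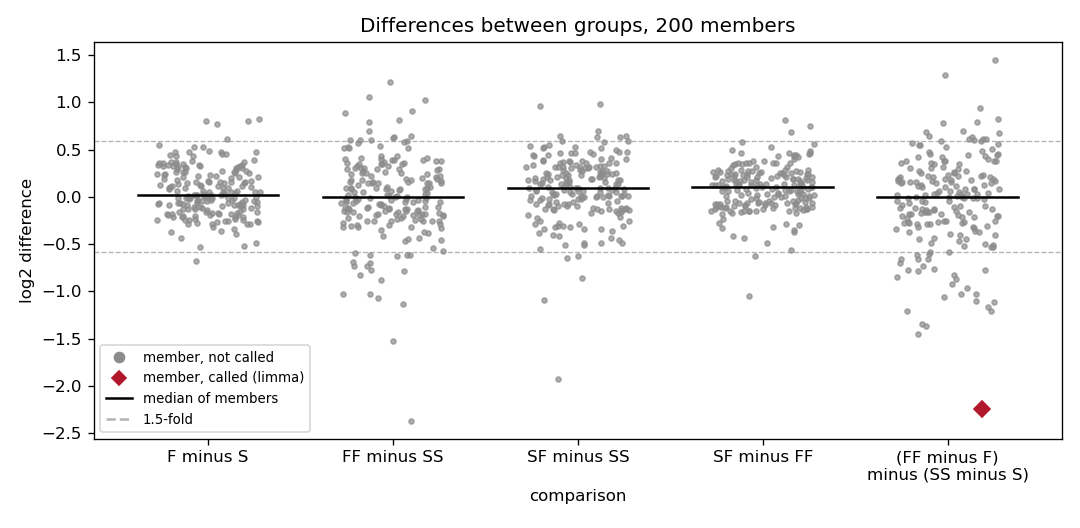
Log2 differences of the 200 members in each tested comparison, the first-named group minus the second; grey points are members that limma did not call, the red diamond is CUST_1970_PI416070213, called in the difference of changes with age, black lines are medians over the members and dashed lines mark 1.5-fold. The medians lie between -0.01 and 0.10.

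The called member, CUST_1970_PI416070213, was high in a single group. Its log2 level was 9.004, 8.80, 8.17, 8.50 and 8.53 in FF, and 10.697, 11.79, 10.15, 10.45 and 11.73 in SS. It was 9.50, 8.31, 8.98, 9.03 and 9.38 in SF and 8.98, 9.35, 8.26, 9.21 and 8.70 in FS. Every SS array was above every other T2 array, and the SF, FF and FS arrays overlapped. At T1 its mean was 7.91 ± 0.35 in F (SD, n = 7) and 8.03 ± 0.27 in S (SD, n = 8), and it was well above background on 8 of the 15 T1 arrays. With SS left out of the T2 mean of the rule, its difference between T2 and T1 in the authors' matrix would have been 0.85, under the required 1, so that its high SS values put it among the members. Its contrasts with SS are therefore given as a description. The change with age in FF over F minus that in SS over S was -2.24 (standard error 0.34), and FF minus SS alone was -2.36 (standard error 0.33). Leaving SS out would have taken 3 members under 1, leaving FF out 1 member and leaving SF out 0 members. The 2 other probes of its target differed between FF and SS in the same direction, by -3.30 and -3.22, and between T2 and T1 by 1.72 and 1.92.

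The level of the spike-in control RNA, which was added to every sample, also stood higher on the SS arrays. Relative to the 75th percentile of the array it was between 3.08 and 5.56 log2 units in SS, and between -2.58 and 1.25 in the other T2 groups. Within SS it was highest on SS5 and SS2, the same fish in which CUST_1970_PI416070213 was highest. The ranks did not match throughout, as that probe was lowest on SS3 (10.15), where the spike-in level was 4.15. Over the T2 arrays its correlation with the spike-in level was 0.78, the highest of all members (lowest -0.68, median -0.08). Within SS it was 0.68. The SS arrays stood high in both, so the value over T2 reflects the difference between groups too. The spike-in level was lowest on SS1 (3.08), the SS array on which CUST_4825_PI415922062 was also lowest and CUST_1970_PI416070213 was at 10.697. No slide held FF together with SS arrays. With slide as a random block the difference of changes of CUST_1970_PI416070213 was -2.29, and on the 75th percentile scale it was -2.56. Limma no longer called it in either, nor without FF3 (-2.13) or without FF5 (-2.22). The part of the spike-in level in the values of either probe was not tested, and slide and group cannot be told apart between FF and SS.

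CUST_5762_PI416070213, singled out after its values were seen, came next. It was at 11.29, 11.84, 11.59, 11.23 and 11.25 in FF, and at 12.20, 12.48, 12.72, 12.46 and 12.47 in SS. These groups did not overlap, whereas SF (11.37 to 12.97) and FS (11.39 to 12.74) each overlapped with both. At T1 its mean was 10.72 ± 0.29 in F (SD, n = 7) and 10.72 ± 0.20 in S (SD, n = 8). F minus S was not called (limma adjusted p = 0.996), which does not show that these groups were equal. FF minus SS was -1.03 (standard error 0.14, limma adjusted p = 0.0129), and the difference of changes with age was -1.03 (limma adjusted p = 0.0186), so that neither passed 0.01. With SS left out of the rule its difference between T2 and T1 would have been 1.14. That is above the required 1 but under the 1.204 of the last member, and the cut at 200 was not drawn again. Its high SS values may thus have put it among the members, so its contrasts with SS are no independent evidence. Its other 2 probes gave -0.82 and -0.51 for FF minus SS.

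**Figure D4:**
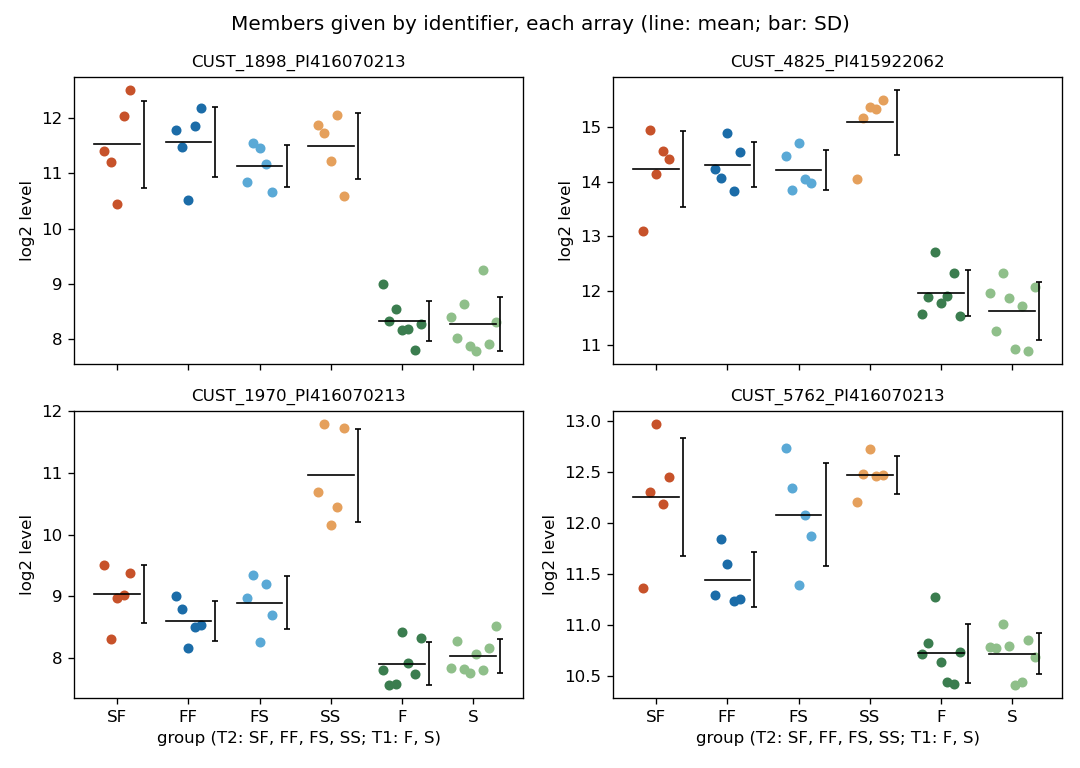
Log2 level on each array of the 4 members given by identifier, by group, with T2 groups at the left and T1 groups at the right of each panel; horizontal lines are group means and bars the SD (5 arrays in each T2 group, 7 in F and 8 in S). CUST_1898_PI416070213 and CUST_4825_PI415922062 separate T2 from T1, CUST_1970_PI416070213 is at 10.15 to 11.79 in SS and at 9.50 or below elsewhere, and CUST_5762_PI416070213 is lower in FF than in SS.

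In SF, FF and SS, fish of 1 group differed in the members more than in the median probe, and in FS, F and S they did not. The median SD of a member within a group was 0.33 in SF, 0.33 in FF and 0.34 in SS, against 0.20, 0.23 and 0.22 over all probes in the same groups, and 0.28 in FS, against 0.30 over all probes. At T1 it was 0.26 in F and 0.27 in S, against 0.29 in each over all probes. The difference in spread was not tested, and the members are brighter at T2 than most probes. The rule took members with a high mean over SF, FF and SS, so probes raised by only a few of these fish could enter. A wider spread in these groups may thus be built in, and the part of this was not tested. From the lowest to the highest of the 20 T2 arrays a member covered a median of 1.35 log2 units, against 1.20 for all probes, and 35 members (17.5%) covered more than 2, against 19.9% of all probes.

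Much of this variation was shared. Within SF, FF and SS, after the group means were taken out, a single component held 61.2% of the variation of the members, the next held 10.9%, and 140 members had a positive weight on it. Over all probes the first component held 43.8%. On the component of the members, SS1 scored 0.54, SF1 0.41 and FF1 0.34, and SS2 (0.20) and SF5 (0.14) came next, while SS3 (-0.32), SS5 (-0.28) and SF2 (-0.28) were lowest. On that of all probes the same 3 arrays led, with 0.54 for SS1, 0.44 for SF1 and 0.34 for FF1. The fish that stood high in the members thus stood out across all probes too. The labels give all 3 the replicate number 1 and name nothing else that sets them apart from the rest of their groups. SS1 was the highest of the 20 T2 arrays for 48 members (24.0%, against 6.93% of all probes), and FF4 the lowest for 47.

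**Figure D5:**
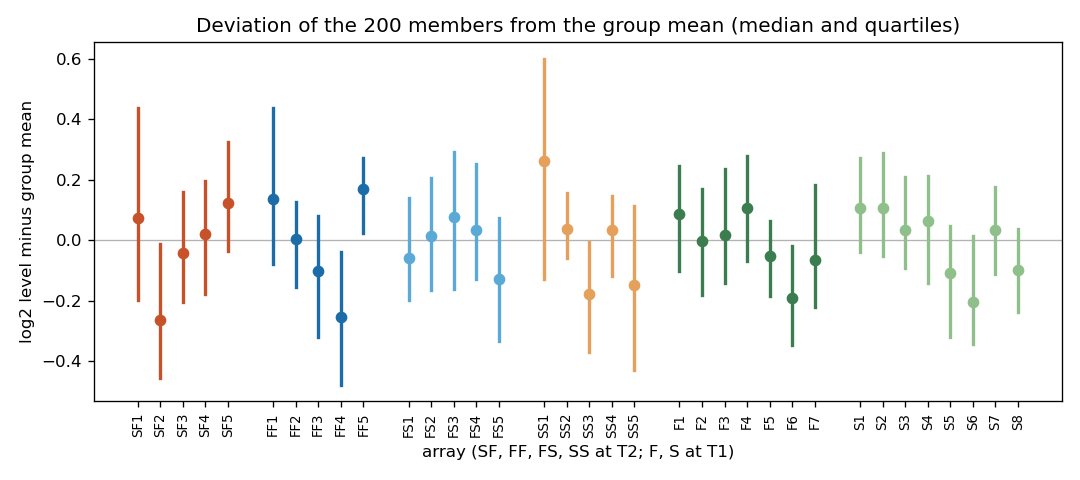
Log2 level of the 200 members minus the mean of the array's own group, for each of the 35 arrays, with T2 groups at the left and T1 groups at the right; circles are the median over the members and bars run from the lower to the upper quartile. SS1 has the highest median (0.26) and SF2 (-0.26) and FF4 (-0.25) the lowest.

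A block of 49 members (24.5%, against 10.3% of all probes) was highest in SF1, in FF1 and in SS1 within each of these groups. Their median level was 11.64 in SF1, 11.23 in FF1 and 11.90 in SS1, and 11.11 in SF5 and 11.09 in SS2. The remaining T2 arrays had medians from 9.82 to 10.67, and the T1 arrays from 8.71 to 9.14. The high values in SF1, FF1 and SS1 follow from how the block was picked. Those in SF5 and SS2 were no condition of the block. Both arrays entered the mean of the rule, however, so high values there may be built in in part. The widest member of all belonged to the same pattern. It was at 13.60 in SS1, 12.41 in SS2, 11.66 in SF1 and 11.23 in FF1, while its median over the 20 T2 arrays was 8.44, inside its T1 range of 7.60 to 8.52. Its difference between T2 and T1, 1.30, thus came from few fish, and rank 159 of 200 placed it near the limit of the list.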

How the data were processed

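Gonads of 35 fish were measured on custom 1-colour Agilent arrays, 1 array a fish. The authors deposited scanner files with the intensity of each spot and its local background, not normalized between arrays, made with Feature Extraction (10.7.3.1 in the file headers). They also deposited a matrix of log2 values, which lay within 0.1 of the values computed here for 98.3% of entries, and within 0.1 for 99.9% when control spots were kept in the normalization. The matrix served to choose the members, and the members and lists were chosen with earlier results of these data known.

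All other values were computed from the scanner files in limma 3.58.1 (R 4.3.3). Median spot intensity was corrected with normexp (offset 50), the 1417 control spots of 45220 were left out, arrays were quantile normalized, and the median log2 value of the unflagged spots was taken for each probe. Calls required 1.5-fold and a Benjamini-Hochberg adjusted p under 0.01 over 24200 probes. The steps were tested on simulated data. For limma the simulated noise was independent between probes, with no slide effect. Variation shared between probes, as seen in these data, was therefore not covered. The difference between T2 and T1, which the choice of members used, had no test. Identifiers were printed for at most 4 members: the largest difference, the largest among members above background on all arrays, and the most negative changes among called members. Only 1 member was called, so the fourth was picked after its values were seen. Alternatives were other signal values, offset 0, control spots kept, dim probes left out, all groups in 1 fit, array weights, slide or replicate number as a block, and each fish left out. Scan day was taken as a block in F vs. S only.

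On a T2 array 67.2 to 87.8% of spots were well above background and on a T1 array 43.2 to 74.4%, and no spot was saturated. The number of arrays limits the precision. No 2 arrays were alike (highest correlation 0.989), and no array was left out. Python 3.11.15 with pandas 2.3.3, numpy 2.4.6 and matplotlib 3.10.9 was used for descriptions and plots.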

Additional observations from a re-analysis of the deposited data

Results flagged for a closer look

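In 36 sets of arrays of 1 group, 4 had an array far from the rest relative to the range of the set. For the share of members well above background these were FF3, FS5 and SS2, each at 99.5% with the other arrays of the group at 100%, which is 1 member of 200. With the other arrays tied, a difference of any size is marked, so no chance rate can be set beside the 4. For CUST_4825_PI415922062 it was SS1, with a log2 level of 14.05, while the other SS arrays were between 15.18 and 15.51. SS1 also had the lowest spike-in level of the SS arrays, and the part of that was not tested.

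The change with age of CUST_1970_PI416070213 differed between lines, being smaller in FF over F than in SS over S, with a difference of -2.24. The member met the rule only through its high SS values (0.85 without SS, against the required 1), so the difference is no independent evidence. The call was lost without FF3 (-2.13), without FF5 (-2.22), with slide as a random block (-2.29) and on the 75th percentile scale (-2.56).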

How the results depend on the processing

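No called value changed sign under the alternatives run, but medians near 0 did. The members' median in F vs. S was 0.02 and became -0.03 with scan day as a block, in FF vs. SS it was -0.01 and became 0.08 with the authors' matrix, and in the difference of changes it was -0.01 and became 0.06 with array weights. Of 83 alternatives to the member counts of 0 in F vs. S, FF vs. SS, SF vs. SS and SF vs. FF, 74 stayed at 0. With all 6 groups in 1 fit limma called 3 members in F vs. S (0.388% of all probes), 4 in FF vs. SS (0.479%) and 1 in SF vs. SS (0.264%). In FF vs. SS it called 1 with the authors' matrix, the 75th percentile scale, offset 0 or control spots kept (0.343%, 0.182%, 0.116% and 0.347% of all probes in this order), 3 with array weights (0.777%), and 0 to 1 with a fish left out (1 without SS1). The difference of changes with age had 0 members called on the 75th percentile scale (0.0661%) and with slide as a random block (0.00826%), 2 with array weights (0.653%), and 0 to 2 with a fish left out (0 without FF3 or FF5, 2 without SS1). For the fits with a fish left out, no share over all probes is given. Their counts therefore cannot be read as particular to the members.

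With the replicate number as a block, 2 members were called in the difference of changes (0.0413% of all probes), and the block changed no other count of members. Same-numbered arrays did not deviate together in every pair (lowest r -0.21 in F vs. S, -0.10 in FF vs. SS, -0.24 in SF vs. SS and 0.09 in SF vs. FF), so the numbers were not taken as pairs.

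On the 75th percentile scale the members' difference between T2 and T1 was 1.97, that of FS3 and FS5 was 1.87 and that of the other probes was 1.93. CUST_1898_PI416070213 was at 4.25 and CUST_4825_PI415922062 at 1.80, and the rule picked 52 of the same 200 probes. The values on FS3 and FS5, the other probes, these 2 members and the rule without a group were added after seeing the data. The causes were not tested. Signal over background limits the T1 values of 92 members.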
